A study of Homo sapiens with 4 samples.

Results

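SNHG8 and 9 other host genes of small nucleolar RNAs (snoRNAs) were followed in an ATAC-seq table of MCF10A cells, an established non-tumorigenic human mammary epithelial line. The 10 genes were SNHG8, SNHG1, SNHG3, SNHG5, SNHG7, SNHG12, SNHG15, SNHG16, GAS5 and ZFAS1, and every region that the table assigns to one of these symbols was taken, whatever its annotation. They accounted for 11 of the 58127 regions of the table. ATAC-seq counts the fragments that a transposase cuts out of open chromatin, so each value is the accessibility of one region in one library. The cells carried either the hairpin shG8d, which knocks down SNHG8d, by its name a form of SNHG8, or the control hairpin shNC, with 2 libraries of each, lettered A and B. All 4 libraries came from the same cell line, and no label says whether A and B were separate cultures, so p-values measure the spread between these libraries only.

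A snoRNA host gene carries snoRNAs within its introns. After splicing, the introns are trimmed to free the snoRNAs, which guide the chemical modification of ribosomal RNA: box C/D snoRNAs direct ribose methylation and box H/ACA snoRNAs direct pseudouridylation. The spliced host RNA often codes for no protein, is in many cases degraded by nonsense-mediated decay, and in many hosts starts with a run of pyrimidines, the feature of the 5′ TOP transcripts that also encode ribosomal proteins. By the RefSeq annotation SNHG8 holds 1 snoRNA (SNORA24), SNHG15 holds 1, SNHG3, SNHG5 and SNHG7 hold 2 each, SNHG16 and ZFAS1 hold 3 each, SNHG12 holds 4, SNHG1 holds 9 and GAS5 holds 11.

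The start of the SNHG8 gene is shown first because the hairpin is directed at SNHG8d and because the table lists an accessible region at it. The window is chr4:118278512-118278811 on the plus strand of GRCh38.p14, from RefSeq, and spans 300 bases around the start. The deposited table uses hg19 and was used here by chromosome and distance to the nearest start, so the window is the promoter of the gene and not the outline of the measured region. Capitals mark the letters TATAA, found 34 bases before the start.
SNHG8: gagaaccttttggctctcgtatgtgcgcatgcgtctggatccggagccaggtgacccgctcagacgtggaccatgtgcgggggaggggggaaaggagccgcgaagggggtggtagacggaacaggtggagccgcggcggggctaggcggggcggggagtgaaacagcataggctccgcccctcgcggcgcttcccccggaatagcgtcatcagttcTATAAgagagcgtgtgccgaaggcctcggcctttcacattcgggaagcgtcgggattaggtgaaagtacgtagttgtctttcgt

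The starts of the other hosts are shown over 60 bases each, 45 before the start and 15 from it, 5′ to 3′ on the strand of the gene, because 2 features recur in them. Capitals mark TATAA within 40 to 20 bases before the start, and any unbroken run of at least 7 pyrimidines that touches a base within 10 of the start. The positions, all in GRCh38.p14 and from RefSeq, are chr11:62855871-62855930 (minus) for SNHG1, chr1:28505898-28505957 (plus) for SNHG3, chr6:85678719-85678778 (minus) for SNHG5 and chr9:136728170-136728229 (minus) for SNHG7. The others are chr1:28581859-28581918 (minus) for SNHG12, chr17:76557719-76557778 (plus) for SNHG16, chr1:173869031-173869090 (minus) for GAS5 and chr20:49278597-49278656 (plus) for ZFAS1. SNHG15 is named only.
SNHG1: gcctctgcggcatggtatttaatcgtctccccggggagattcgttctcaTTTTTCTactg
SNHG3: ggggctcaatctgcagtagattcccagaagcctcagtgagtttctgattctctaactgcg
SNHG5: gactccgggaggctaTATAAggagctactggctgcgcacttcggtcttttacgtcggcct
SNHG7: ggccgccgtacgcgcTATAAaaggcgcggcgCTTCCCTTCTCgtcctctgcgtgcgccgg
SNHG12: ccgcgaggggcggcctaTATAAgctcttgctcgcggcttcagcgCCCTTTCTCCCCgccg
SNHG16: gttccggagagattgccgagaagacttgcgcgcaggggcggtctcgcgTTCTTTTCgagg
GAS5: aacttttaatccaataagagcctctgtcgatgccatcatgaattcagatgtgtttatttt
ZFAS1: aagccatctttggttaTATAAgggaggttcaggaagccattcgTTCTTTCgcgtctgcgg

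TATAA in that place, on the strand of the gene, was present in 5 of the 9 hosts with a window (SNHG5, SNHG7, SNHG8, SNHG12 and ZFAS1) and in 3.82% of 35116 RefSeq promoters. A pyrimidine run of that length was present in 5 of the 9 (SNHG1, SNHG7, SNHG12, SNHG16 and ZFAS1) and in 21.8% of all promoters. SNHG12 had the longest run, 12 letters, and SNHG8 a run of 6, below the length marked. Over both strands of the whole 300-base window, TATAAA was present in 2 of the 9 hosts (11.5% of all promoters), CACGTG, the E-box, in 1 (7.26%), and CCGGAAG, an ETS motif, in 0 (10.3%). The median host window held 30 CpG dinucleotides, against 14 over all promoters. The GAS5 window stood apart with 5, at the RefSeq start used for it here. Whether that window covers the promoter that GAS5 shares with ZBTB37 was not tested. The 5-letter TATAA and the run length were chosen after the sequences had been seen, and a match describes letters, not a bound factor.

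The 4 libraries are named by depth here, for a reason that bears on every value. Each library leaves a fixed step in its values, the worth of 1 read, and the steps (0.842 and 0.807 normalized counts for one pair of libraries, 1.21 and 1.17 for the other) show that the columns headed shG8d and shNC hold opposite pairs in different rows of the table. The deeper pair (8124488 and 8111839 reads in regions) stands under shG8d in the 33913 common regions, and under shNC in both specific sets, of 2755 (shG8d-specific) and 21459 (shNC-specific) regions. The shallower pair (4457248 and 4344212 reads) stands under the opposite label throughout. Which placement is right cannot be told from the table, so differences are deeper minus shallower pair, and none is given as an effect of the knockdown. The hairpin acts on RNA, so accessibility checks neither the knockdown nor the labels. Promoter regions were listed for 7 of 8 genes of basal mammary cells (all but TP63), for 4 of 4 general epithelial genes, and for 1 of 10 genes of other cell types (CD14).

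None of the 7 host gene regions in the common set passed the test, and 3 of the 4 in the specific sets did, all lower in the deeper pair. The test was limma on log2(normalized count + 1), with Benjamini-Hochberg adjustment over all 58127 regions and a threshold of 0.05. By that rule 25.7% of all common regions were called, beside 0 of the 7 host regions. Of the specific regions 20.6% were called, but the 3 called members were all shG8d-specific, a set in which 70.0% of regions were lower in the deeper pair. The members' count is therefore near the background of the set they stand in. How the authors chose the specific regions is not known. The p-values of specific regions, here and below, may therefore not be independent of that choice. At an unadjusted limma p under 0.05, 0 of the 7 common and 4 of the 4 specific member regions passed (background 39.9% and 32.3%). The authors' deposited table has a p under 0.05 for 0 of the 7 and 3 of the 4 (background 26.3% and 21.2%). The counts moved when single libraries were left out, as did the count over the whole table. Without shallower library A the difference was 0.58 at SNHG8 and −0.65 at SNHG15. Without deeper library A it was −1.88 at the shG8d-specific SNHG5 region, −0.96 at ZFAS1 and −0.45 at the SNHG16 promoter.

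SNHG8 had 1 region, a common promoter region on chromosome 4 placed 103 bp upstream of the start. Its normalized counts were 109 and 98.5 in the deeper pair, headed shG8d there, against 94.2 and 69.1 in the shallower pair (shNC by label). Both deeper libraries lay above both shallower ones, by a narrow margin between the lower deeper and the higher shallower library. Non-overlapping pairs were found in 67.1% of all common regions. The values rest on 130, 122, 78 and 59 reads in the same order. The difference was 0.36 on the log2 scale (SE 0.228, 95% interval −0.12 to 0.83), and limma's adjusted p of 0.267 did not pass. It moved with 1 library and with the scaling: it was 0.58 with an adjusted p of 0.0470 without shallower library A, 0.14 (adjusted p 0.707) without shallower library B, and 0.0088 (adjusted p 0.982) with the libraries set to equal totals. A larger open share of cells and more cuts per cell cannot be told apart in such bulk libraries.

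**Figure D1:**
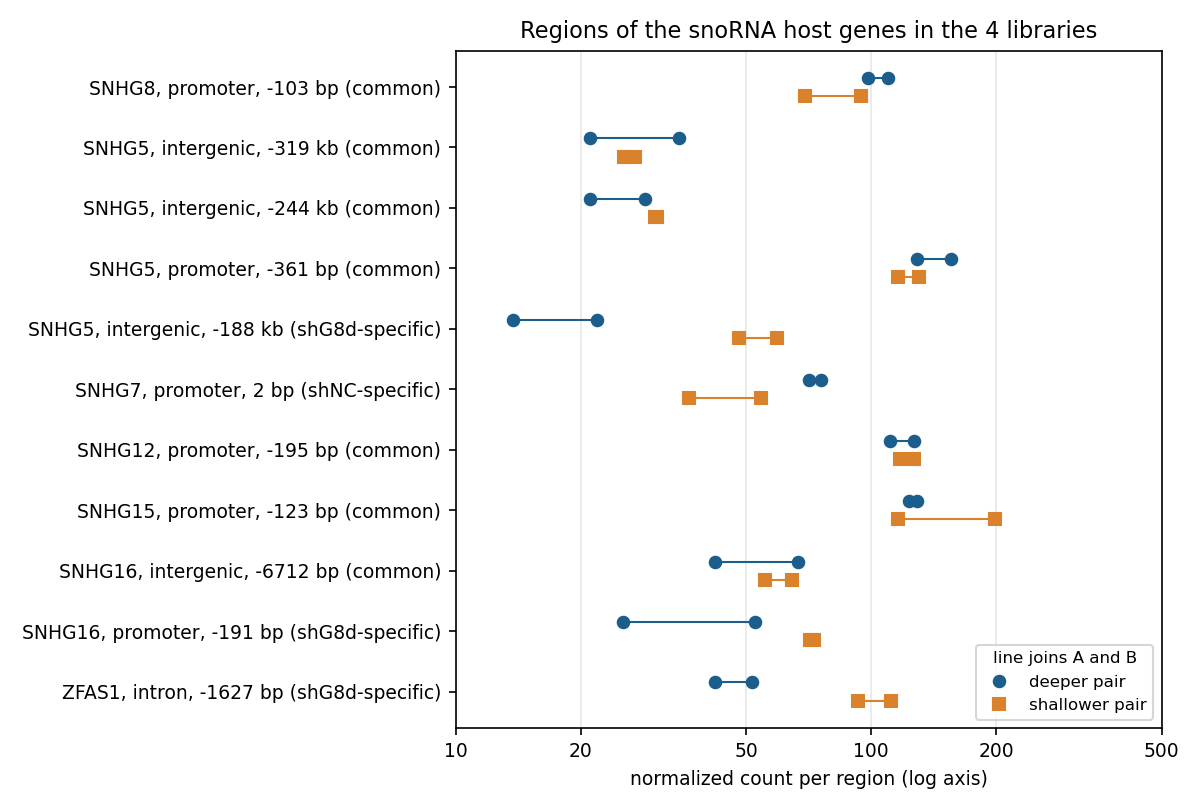
Normalized counts (log axis) of the 11 regions assigned to snoRNA host genes in the 4 libraries, with circles for the deeper pair, squares for the shallower pair and a line joining libraries A and B. The 3 called regions are SNHG5 at −188 kb, SNHG16 at −191 bp and ZFAS1. The pairs are far apart at SNHG5 at −188 kb and at ZFAS1. At SNHG16 the deeper libraries lie further from each other than deeper library B lies from the shallower pair. The pairs lie close together or overlap at the SNHG5, SNHG12 and SNHG15 promoters.

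Of the other hosts, SNHG5, SNHG12 and SNHG15 also had common promoter regions, and in each of them the pairs overlapped. SNHG5, the host of SNORD50A and SNORD50B, held 129 and 156 normalized counts in the deeper pair (shG8d by label), against 130.5 and 116 in the shallower pair (shNC by label), 361 bp upstream of its start on chromosome 6. Its difference was 0.20 (SE 0.198, limma adjusted p 0.491). The highest value was that of deeper library B and the lowest that of shallower library B.

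SNHG12 on chromosome 1, which carries SNORD99 and 3 H/ACA snoRNAs, held 111 and 127 normalized counts in the deeper pair, against 117 and 127 in the shallower pair. The difference was −0.04 (SE 0.200, 95% interval −0.45 to 0.38, limma adjusted p 0.914). The values of the pairs were interleaved.

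SNHG15 on chromosome 7, the host of SNORA9, held 129 and 123 normalized counts in the deeper pair, against 116 and 198 in the shallower pair. Shallower library B stood apart at this promoter, and shallower library A lay below both deeper libraries. The difference was −0.26 (SE 0.225, limma adjusted p 0.422). It turned on 1 library: it was −0.65 without shallower A, where it passed with an adjusted p of 0.00503, and 0.12 without shallower B. It also passed as lower, at −0.615 with an adjusted p of 0.0488, when all libraries were scaled to equal totals.

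SNHG7 and SNHG16 had their promoter regions in the specific sets. SNHG7 on chromosome 9, which carries SNORA17A and SNORA17B, had an shNC-specific region 2 bp from its start. It held 70.7 and 75.9 normalized counts in the deeper pair (shNC by label), against 54.4 and 36.3 in the shallower pair (shG8d by label). Both deeper libraries were higher, and 53.4% of shNC-specific regions had pairs that did not overlap. The difference of 0.71 (SE 0.276, 95% interval 0.13 to 1.28) did not pass, with a limma adjusted p of 0.0691. Without shallower library A it was 0.99 with an adjusted p of 0.00483, without shallower library B 0.42 (adjusted p 0.274), and with equal totals 0.36 (adjusted p 0.339). Of the whole shNC-specific set 13.2% passed as higher in the deeper libraries.

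SNHG16 on chromosome 17, which carries SNORD1A, SNORD1B and SNORD1C, had an shG8d-specific promoter region 191 bp upstream of its start. It held 25.2 and 52.5 normalized counts in the deeper pair (shNC by label), against 71.3 and 72.6 in the shallower pair (shG8d by label). The deeper libraries differed from each other by more than the shallower ones did, and both were lower. The difference of −0.96 (SE 0.318) passed, with a limma adjusted p of 0.0346. It rested on deeper library A: without it the difference was −0.45 with an adjusted p of 0.476. Among the 265 promoter regions of the shG8d-specific set 69.1% were lower in the deeper pair. The authors' deposited table gives this region a log2 fold change of 0.89 and a p of 0.0357, for the columns as labelled, shG8d over shNC.

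ZFAS1 on chromosome 20, the antisense host of SNORD12, SNORD12B and SNORD12C, had no promoter region under its own symbol. Its region lay 1627 bp upstream of its start and is annotated to intron 1 of 13 of ZNFX1, the gene on the opposite strand. This shG8d-specific region held 42.1 and 51.6 normalized counts in the deeper pair (shNC by label), against 93.0 and 111 in the shallower pair (shG8d by label). Every deeper value was below every shallower value, and the pairs did not overlap, in either direction, in 95.0% of shG8d-specific regions. The difference of −1.11 (SE 0.248) passed, with a limma adjusted p of 0.00407. Without deeper library A it was −0.96 with an adjusted p of 0.0573. The authors' deposited table gives 1.12 and a p of 0.00132 for the columns as labelled, shG8d over shNC.

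The 4 regions left lay between genes. SNHG5 was the nearest start to 3 of them, at −188, −244 and −319 kb, far from the gene itself. The shG8d-specific one at −188 kb held 21.9 and 13.7 normalized counts in the deeper pair (shNC by label), against 59.2 and 48.0 in the shallower pair (shG8d by label). That is 3.01-fold higher in the shallower pair as a ratio of means, the widest gap of the 11 regions. The limma difference was −1.57 (SE 0.357, adjusted p 0.00465), and −1.25 with an adjusted p of 0.0516 without deeper library B. The common region at −244 kb held 28.6 and 21.0 in the deeper pair (shG8d by label), against 30.2 and 30.5 in the shallower pair (shNC by label), with a difference of −0.30 and an adjusted p of 0.588. Its pairs did not overlap.

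The common region at −319 kb overlapped, with 34.5 and 21.0 normalized counts in the deeper pair, against 25.4 and 26.9 in the shallower pair, a difference of 0.04 and a limma adjusted p of 0.950. SNHG16 had an intergenic common region 6712 bp upstream of its start. It held 66.5 and 42.0 normalized counts in the deeper pair, against 55.6 and 64.4 in the shallower pair, which overlapped, and its difference was −0.18 with an adjusted p of 0.691. Among common intergenic regions 8.04% were called higher and 15.8% lower in the deeper pair.

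Across the 4 members with a common promoter region the median difference was 0.08, from −0.26 for SNHG15 to 0.36 for SNHG8. It was also 0.08 over all 6 members with a promoter region. The added ones were SNHG16 at −0.96 and SNHG7 at 0.71. They stand in the shG8d-specific and shNC-specific sets, whose regions had medians of −1.20 and 0.24. The median over 11487 genes, each with its strongest promoter region, was 0.14. Counts over genes and neighbours, here and below, pool common and specific regions, as do the shares beside them. Of those genes 20.3% were called higher and 10.7% lower in the deeper pair, against 0 and 1 of the 6 members. The split depends on scaling: with the libraries set to equal totals, 986 of the 11487 promoters were higher and 2953 lower, where 2327 were higher and 1227 lower with the deposited scaling, and the median of all regions moved by −0.35. Directions are therefore relative to the deposited scaling.

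SNHG1, SNHG3 and GAS5 had no region (0) under their own symbols, and each of them lies beside a protein-coding gene. The table gives a region to 1 symbol, that of the nearest transcript start. Regions annotated to a host transcript or its snoRNA, or nearest to the start of a hosted snoRNA, were therefore looked up under other symbols, a step taken after the table had been seen. There were 14 such regions, of which 6 carry the annotation of the host or its snoRNA. They came from 5 hosts: SNHG1, SNHG3, GAS5, SNHG16 and ZFAS1.

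**Figure D2:**
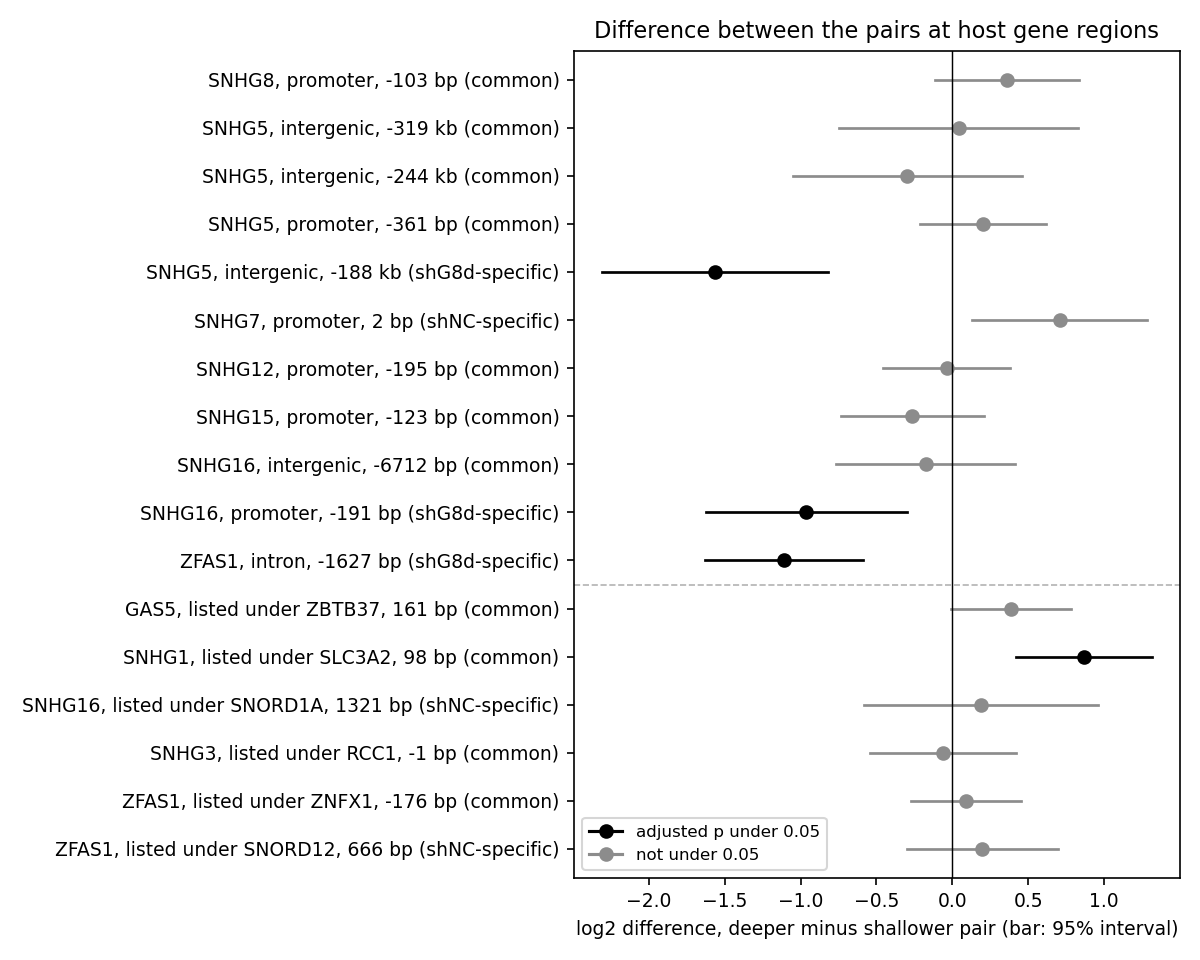
Each point is the difference between the pairs in log2(normalized count + 1), deeper minus shallower, and each line its 95% interval, for the 11 regions under the host symbols (above the dashed line) and the 6 regions annotated to a host but listed under another symbol (below it). Black marks the 4 regions with an adjusted p under 0.05: 3 shG8d-specific regions to the left of 0, and the region of SNHG1 listed under SLC3A2 to the right, at 0.87.

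The region of SNHG1 passed as higher in the deeper pair. SNHG1 carries a cluster of C/D snoRNAs on chromosome 11 and lies beside SLC3A2, which encodes the heavy chain of several amino acid transporters. The common region 98 bp from a start of SLC3A2, annotated to SNORD26, held 136 and 144 normalized counts in the deeper pair (shG8d by label), against 87.0 and 66.8 in the shallower pair (shNC by label). The pairs were well apart. The difference was 0.87 (SE 0.215, limma adjusted p 0.00778), and of all common regions 10.7% were called so. The call did not hold with equal totals (0.52, adjusted p 0.0756) or without deeper library A (0.91, adjusted p 0.0652) or deeper library B (0.83, adjusted p 0.0837).

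A second common region under SLC3A2, 316 bp from its start, had the opposite sign. It held 74.9 and 96.0 normalized counts in the deeper pair, against 151 and 111 in the shallower pair. Both deeper libraries were below both shallower ones. The difference was −0.61 (SE 0.224) with a limma adjusted p of 0.0560, which did not pass. It passed without shallower library B (−0.82, adjusted p 0.00299) and with equal totals (−0.96, adjusted p 0.00329). The direction thus differed between regions listed under the same symbol, and the difference between them was not tested.

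GAS5, whose spliced RNA is a textbook substrate of nonsense-mediated decay, shares its promoter on chromosome 1 with ZBTB37. The common region 161 bp from the start of ZBTB37, annotated to SNORD74, held 192 and 224 normalized counts in the deeper pair (shG8d by label), against 180.0 and 139 in the shallower pair (shNC by label). The deeper pair was above. The difference was 0.39 (SE 0.189, 95% interval −0.01 to 0.78, limma adjusted p 0.145). Without shallower library A it was 0.57 with an adjusted p of 0.00806, without shallower library B 0.20 (adjusted p 0.433), and with equal totals 0.035 (adjusted p 0.908).

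SNHG3, the host of SNORA73A and SNORA73B, runs into RCC1, the exchange factor of the GTPase Ran. Its common region, annotated to an SNHG3 transcript and listed under RCC1 at −1 bp, held 77.4 and 79.1 normalized counts in the deeper pair, against 90.6 and 73.8 in the shallower pair. The pairs overlapped, with a difference of −0.06 (SE 0.231, limma adjusted p 0.872).

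The promoter that ZFAS1 shares with ZNFX1 has a region of its own. It is listed under ZNFX1 at −176 bp, is annotated to SNORD12C, and held 267 and 337 normalized counts in the deeper pair, against 263 and 301 in the shallower pair. The pairs overlapped and the difference was 0.09 (SE 0.173, limma adjusted p 0.742). The intronic ZFAS1 region that passed is therefore a separate region from this one. Another region at the locus, listed under SNORD12 at 666 bp, had a difference of 0.20 (adjusted p 0.583), and the intronic SNHG16 region listed under SNORD1A had 0.19 (adjusted p 0.751).

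SNORD50A, which lies inside SNHG5, was the nearest start to 3 further regions that are not annotated to SNHG5, and 2 of these passed as higher in the deeper pair. They were the only ones called among all 8 regions of this kind. Among all 14 regions under another symbol 3 were called higher and 0 lower. The background called higher was 10.7% of common and 13.2% of shNC-specific regions. The shNC-specific region 1737 bp from SNORD50A held 60.6 and 75.9 normalized counts in the deeper pair (shNC by label), against 35.0 and 32.8 in the shallower pair (shG8d by label). It was about 2.01-fold as accessible in the deeper pair, with a difference of 0.98 (SE 0.286, limma adjusted p 0.0187). The common region 16942 bp from it held 89.2 and 106 in the deeper pair (shG8d by label), against 60.4 and 55.1 in the shallower pair (shNC by label), a difference of 0.75 with an adjusted p of 0.0281. In both the deeper libraries were higher without overlap. Neither call held with equal totals, where the differences were 0.63 (adjusted p 0.102) and 0.40 (adjusted p 0.222). Leaving out either deeper library also ended both, with adjusted p between 0.0710 and 0.262.

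PRSS12 is the next protein-coding gene after SNHG8 on chromosome 4, and METTL14 the one after it. They moved in opposite directions. METTL14 encodes the partner of METTL3 in the enzyme that methylates adenosine in mRNA. Its common promoter region, 134 bp from the start, held 86.7 and 75.9 normalized counts in the deeper pair (shG8d by label), against 134 and 175 in the shallower pair (shNC by label). Both deeper libraries were far below the shallower ones. The difference was −0.91 (SE 0.213, limma adjusted p 0.00546). Without deeper library B it was −0.81 with an adjusted p of 0.0672.

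PRSS12 encodes neurotrypsin, a serine protease. Its common region 333 bp upstream of the start held 79.9 and 79.1 normalized counts in the deeper pair (shG8d by label), against 41.1 and 42.2 in the shallower pair (shNC by label). Each pair was tight and the pairs were far apart. The difference was 0.92 (SE 0.259, limma adjusted p 0.0159), though not past the threshold with equal totals (0.57, adjusted p 0.106) or without either deeper library (adjusted p 0.133 and 0.110). The other 5 PRSS12 regions, from 592 bp downstream to 76315 bp upstream, did not pass, with differences from −0.51 to 0.91, and NDST3 had none.

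**Figure D3:**
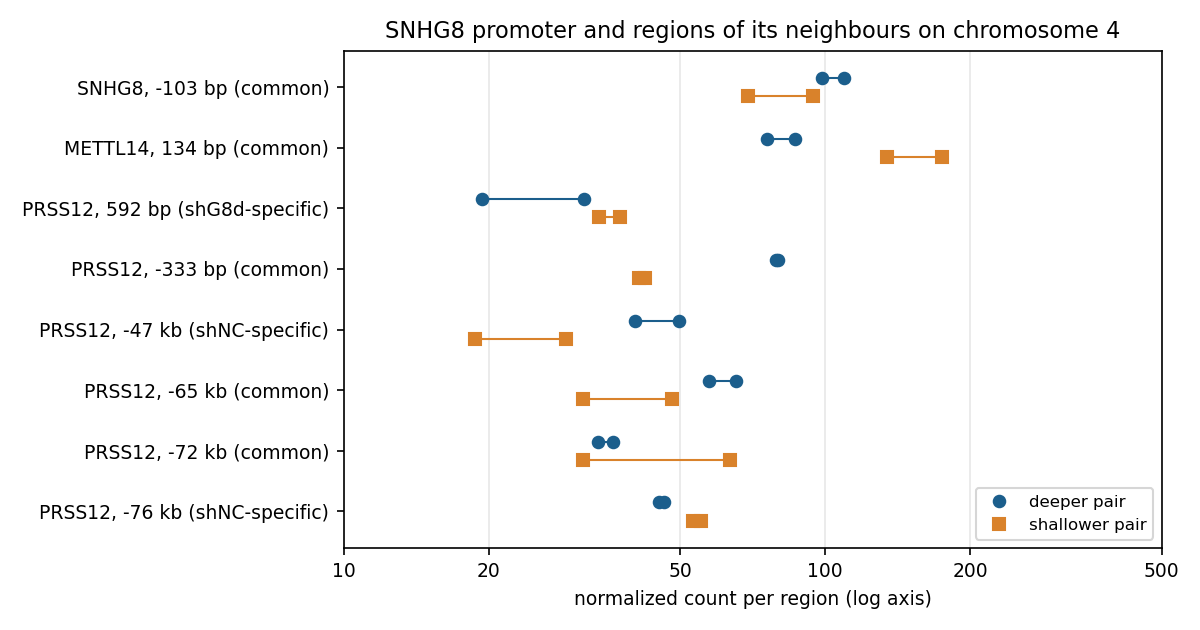
Normalized counts (log axis) at the SNHG8 promoter and at the 7 regions of METTL14 and PRSS12, its neighbours on chromosome 4, in the deeper pair (circles) and the shallower pair (squares). The deeper pair is lower at METTL14 and higher at PRSS12 at −333 bp, with SNHG8 between them: its pairs lie side by side without overlap.

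Of all 49 regions of the genes that share or border a host promoter, 9 were called higher and 2 lower in the deeper pair, against 11.1% and 12.4% of all regions of the table. Among their 20 promoter regions 5 were higher and 1 lower, against a background of 20.3% and 10.7% for promoters. The 5 were the SLC3A2 region at 98 bp, PRSS12 at −333 bp, PHACTR4 at 213 bp, CCM2 at 147 bp and ST6GALNAC2 at 45 bp.

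PHACTR4, a regulator of protein phosphatase 1 and actin, was listed as a neighbour of SNHG12. It held 125 and 139 normalized counts in the deeper pair, against 60.4 and 64.4 in the shallower pair. Its difference was 1.06 (SE 0.218, limma adjusted p 0.00232). Its other promoter regions did not pass, at −0.01 (adjusted p 0.973) and −0.24 (adjusted p 0.576).

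ST6GALNAC2, a sialyltransferase gene beside SNHG16, held 86.7 and 93.6 normalized counts in the deeper pair (shNC by label), against 53.2 and 25.8 in the shallower pair (shG8d by label). Its difference was 1.26 (SE 0.306, limma adjusted p 0.00686). CCM2, which encodes a scaffold protein named for cerebral cavernous malformations and borders SNHG15, had a difference of 0.62 (SE 0.183, adjusted p 0.0192), and 0.27 with an adjusted p of 0.282 under equal totals. Without deeper library A or B its adjusted p was 0.216 and 0.115.

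The remaining neighbour promoters did not pass. They were TRNAU1AP at −0.47 (limma adjusted p 0.0677), PRCD at 0.53 (adjusted p 0.0923) and 0.23 (adjusted p 0.615), MYO1G at 0.56 (adjusted p 0.264) and PRSS12 at 592 bp at −0.51 (adjusted p 0.323). SYNCRIP had 0.29 (adjusted p 0.261), RCC1 at −57 bp 0.10 (adjusted p 0.786) and SNX14 0.07 (adjusted p 0.803). Without shallower library A, PRCD at 868 bp (0.84, adjusted p 0.00114), MYO1G (1.02, adjusted p 0.0255) and TRNAU1AP (−0.53, adjusted p 0.0146) passed, and with equal totals TRNAU1AP passed too (−0.82, adjusted p 0.00286).

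A wider list of 40 host genes, 31 of which hold a snoRNA in RefSeq, had promoter regions for 23, with 5 called higher and 5 lower in the deeper pair, where 20.3% and 10.7% of all promoters were called. Their median difference was 0.27, against 0.14 over all promoters. DANCR, a non-coding host on chromosome 4, led them. It held 234 and 240.5 normalized counts in the deeper pair (shG8d by label), against 117 and 64.4 in the shallower pair (shNC by label), a difference of 1.44 (SE 0.231, limma adjusted p 0.000378). Both deeper libraries were close together and far above both shallower ones, which differed from each other.

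SNHG10 had a difference of 0.60 (limma adjusted p 0.0186). This call did not hold with equal totals (adjusted p 0.326), without deeper library A (adjusted p 0.189) or without deeper library B (adjusted p 0.140). Of the whole list, 1 gene was higher and 6 were lower with equal totals, where 986 and 2953 of 11487 promoters were. Without either deeper library fewer genes of the list were called, and fewer of all promoters too. Other called genes, named once their values had been seen, were SNHG21 (0.66) and RPL13A (0.82), higher, and CNOT1 (−0.56), EIF4A2 (−0.90), TNPO2 (−0.81), EEF1B2 (−0.70) and RPL3 (−0.82), lower. Ribosomal protein genes stood on both sides, RPL13A higher and RPL3 lower. SNHG10 and SNHG21, both called higher, are among the listed genes that hold no snoRNA in RefSeq. A further set, formed after the table had been seen, left out the members. It held 690 RefSeq genes whose span contains a snoRNA on either strand. Of these 379 had a promoter region, 85 were higher and 45 lower (37 and 85 with equal totals), and the median was 0.14. These counts are near the shares over all promoters, 20.3% higher and 10.7% lower (986 and 2953 of 11487 with equal totals).

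**Figure D4:**
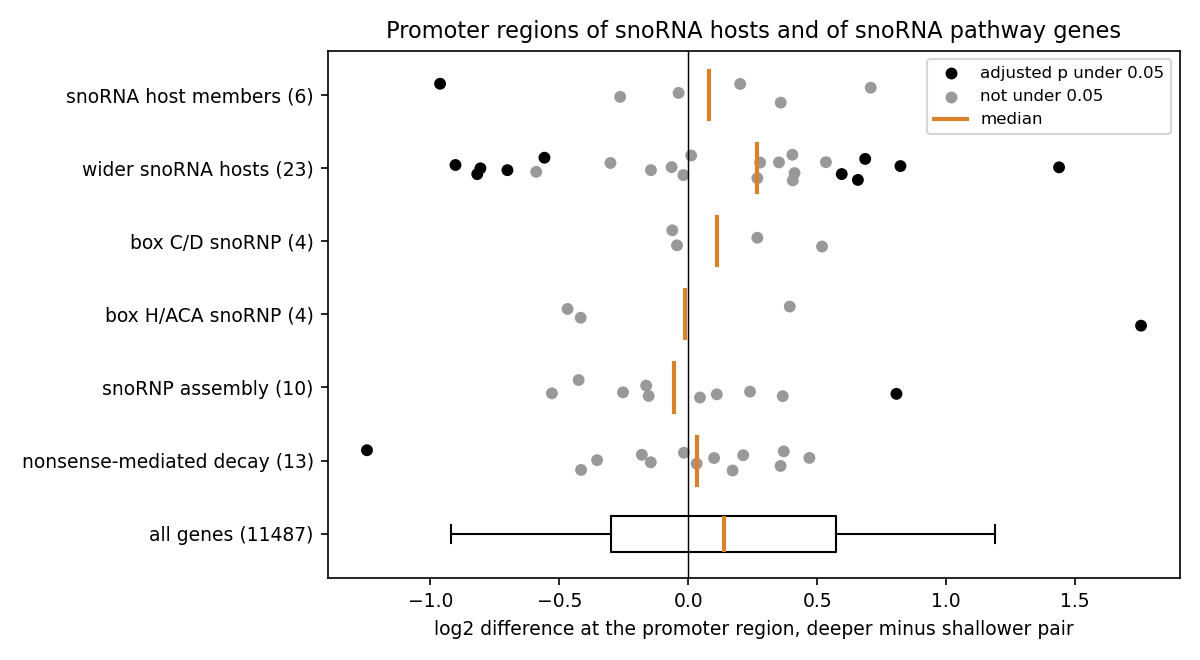
Each point is the difference between the pairs in log2(normalized count + 1), deeper minus shallower, at 1 promoter region per gene, for the snoRNA hosts and the lists of snoRNA pathway genes, with black points for an adjusted p under 0.05 and a bar at each median. The box gives the quartiles over 11487 genes and its whiskers the 5th and 95th percentiles. DKC1 (shNC-specific) at 1.76 and DANCR (common) at 1.44 lie beyond the upper whisker. SMG8 (shG8d-specific) at −1.25 lies below the lower one.

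Of 31 genes for snoRNA-binding proteins, their assembly factors and nonsense-mediated decay with a promoter region, 2 were called higher and 1 lower in the deeper pair, where 20.3% and 10.7% of all promoters were. The box C/D proteins (NOP56, NOP58, fibrillarin and SNU13) had 0 of 4 promoters called, at a median of 0.11. Of the 4 box H/ACA proteins DKC1 was called. DKC1 encodes dyskerin, the pseudouridine synthase of these particles. Its shNC-specific promoter region held 90.0 and 80.7 normalized counts in the deeper pair (shNC by label), against 30.2 and 19.9 in the shallower pair (shG8d by label), a difference of 1.76 (SE 0.302, limma adjusted p 0.000642). The call held under every alternative setting that kept all 4 libraries. Those settings do not touch how the authors chose the shNC-specific regions, of which 13.2% were called higher in the deeper pair.

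Of 10 assembly factors RUVBL1, an ATPase of the R2TP chaperone complex, was called, at 0.81 (limma adjusted p 0.00532), and at 0.46 with an adjusted p of 0.0810 under equal totals. Without either deeper library its adjusted p was 0.0877 and 0.0531. Of 13 nonsense-mediated decay genes with a promoter region SMG8, a regulator of the SMG1 kinase, was called lower, at −1.25 (limma adjusted p 0.0180). Among the 265 promoter regions of the shG8d-specific set 69.1% were lower in the deeper pair. SMG8 is shG8d-specific, and without deeper library B its adjusted p was 0.156, without shallower library B 0.0502. Of the 31 promoters together, 1 was higher and 6 were lower with equal totals, where 986 and 2953 of 11487 promoters were. The count called fell without deeper library B and rose without shallower library A, as it did over all promoters.

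The promoters nearest to that of SNHG8 over the 4 log2 values, among 28 other members and wider hosts, were those of SNHG21 at a Euclidean distance of 0.61, SNHG12 at 0.99 and SNHG25 at 1.04. SNHG21 on chromosome 15 had the same order of pairs, with 95.9 and 112 normalized counts in the deeper pair, against 64.0 and 66.8 in the shallower pair, and passed, at 0.66 with a limma adjusted p of 0.0416. SNHG25 had the opposite sign, at −0.59 with an adjusted p of 0.0786. The likeness was thus mostly one of level, and region widths, which also set a level, were not used.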

How the data were processed

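ATAC-seq of MCF10A cells was used as 1 deposited table of 58127 regions and 4 libraries. Per the file headers its values are log10 normalized counts of the authors, with the authors' log2 fold change and p-value per region. Reads were processed with CASAVA 1.4 and hg19, per the submitters' processing notes; the sources used here name no aligner, peak caller or scaling. Values were turned back into normalized counts, of which 100% were whole reads within 0.05 of a read at the library's step. The unit was log10, where counts or normalized values had been planned for, so the test for normalized values was kept: limma 3.58.1 (R 4.3.3) with trend on log2(normalized count + 1), which understates changes of low regions. A filter of 10 normalized counts in at least 2 libraries removed no region. Promoter regions are annotated as such or lie within 1000 bp of the start. Libraries of both groups are lettered A and B. No label says whether a letter marks a shared culture or batch, and the main test did not pair by letter. Region widths were not used, so levels are compared within a region only. The worth of 3 reads was 2.42 to 3.62 normalized counts, which is not a measure of counting error.

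Hosts, wider lists, neighbours and tests were chosen with earlier results of these data known. Named were every host region, every neighbour promoter, and up to 3 called genes per list with the smallest adjusted p. One gene of the wider list is not reported here. SnoRNA positions, neighbours and sequences come from RefSeq (GRCh38.p14); 9 of 10 hosts matched its promoter table. Alternatives tried were equal totals, pseudocounts of 0.5 and 5, no filter, a mean of at least 40, each library left out, the replicate block, the same set only, and limma without trend.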

Additional observations from a re-analysis of the deposited data

How the results depend on the processing

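With equal library totals the median of all regions moved by −0.35, 1 common host region was called (SNHG15, lower), the median of host promoters was −0.27, and 7 of the snoRNA particle and decay promoters were called. Leaving out 1 library at a time gave 0 to 2 called common host regions (2 without shallower library A), 1 to 4 called specific ones (1 without deeper library A), 1 to 10 called wider hosts (1 and 2 without a deeper library), 1 to 6 called particle and decay promoters, host promoter medians of −0.033 to 0.17, and 0.14 to 0.58 for SNHG8, which was 0.0088 with equal totals. Without the variance trend 2 wider hosts were called, and 8409 of all regions, against 18925 with equal totals. With the replicate block 15308 regions were called, against 13697 without it; SNHG8 stayed at 0.36, and the SLC3A2 region at 316 bp passed (adjusted p 0.0360). A and B differences of the pairs correlated at −0.0039 over regions, so no shift shared by letter was seen over the regions as a whole. This value cannot tell whether a letter marks a shared culture or batch. Signs turned only at regions that were not called. With equal totals these were SNHG5 at −318566 bp (−0.30) and −361 bp (−0.15), PRCD at 279 bp (−0.12), RCC1 at −57 bp (−0.25), SNORD12 at 666 bp (−0.15), SNORD1A (−0.16), SNX14 (−0.28), SYNCRIP (−0.063) and ZNFX1 (−0.26). Leaving out libraries gave ranges of −0.30 to 0.39 for SNHG5 at −318566 bp, −0.13 to 0.057 for SNHG12, −0.65 to 0.12 for SNHG15, −0.50 to 0.15 for SNHG16 at −6712 bp, −0.21 to 0.083 for RCC1 at −1 bp and −0.088 to 0.29 at −57 bp, −0.11 to 0.25 for SNX14, −0.078 to 0.26 for ZNFX1, −0.27 to 0.25 for PHACTR4 at 47 bp and −0.32 to 0.69 for SNORD1A. The SNHG16 promoter did not pass when tested within its own set (adjusted p 0.0692) or without the trend (adjusted p 0.0856). The cause of these shifts was not tested. Of the values for single regions 396 kept direction and side of the threshold, 38 lost the call, 14 gained it and 25 turned sign. Part of the 396 was fixed in advance. The fit without a filter repeated the main one, because the filter removed no region. The replicate block, the same set only and the fit without trend left every difference unchanged, so no sign could turn there. With 2 libraries a pair, small differences were not detectable at this depth.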
